A study of Mus musculus with 26 samples.

Results

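CatSper is the calcium channel of the sperm tail. It lets calcium into the flagellum at alkaline pH and is known for driving the hyperactivated beat with which sperm reach and enter the egg, and male mice that lack a pore subunit are infertile. The pore is formed by the products of *Catsper1*, *Catsper2*, *Catsper3* and *Catsper4*. Around it sit auxiliary membrane proteins, encoded here by *Catsperb*, *Catsperd*, *Catsperg1* and *Catsperg2*, and beneath it a cytosolic pair, the calcium-binding EFCAB9 and its partner CATSPERζ, the product of *Catsperz*. These 10 genes were taken by symbol from a table of 51124 genes, whatever their values. Each symbol was found once, and all 10 passed the filter of at least 10 normalized counts in 2 or more libraries, which left 23782 genes to be tested.

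The libraries were made from total RNA of whole testes of adult mice after removal of ribosomal RNA. Each of the 3 genotypes had 2 libraries. N1 and N2 were wild type (WT). N3 and N4 were from *10xPerf* mice, homozygous for a knock-in in *Ythdc2*, the gene of a meiotic RNA helicase, whose 3′UTR then holds 10 target sites of piR-A, a pachytene piRNA. N5 and N6 were from *10xBulge* mice, homozygous for 10 such sites that do not pair with bases 10 and 11 of piR-A. Both lines were founded in B6D2F1/J hybrid embryos with Cas9, and the labels give each library a mouse of its own. Other libraries of the series hold small RNAs bound to MILI or MIWI and are not analysed here.

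Depth was estimated by taking the most frequent low value of a library as the worth of a single read. This gave roughly 41.1 to 61.6 M reads per library, with 3 reads worth 2.73 to 3.63 normalized counts. Only 19.5% of the genes above 0 were whole multiples of that step in every library, so these figures are a rough guide. Replicates correlated across genes with Pearson's r of 0.956 in WT, 0.958 in *10xPerf* and 0.951 in *10xBulge*, on the log2 scale. *Ythdc2*, which carries the inserted sites, had 827 and 2412 normalized counts in WT, 1334 and 1136 in *10xPerf* and, in *10xBulge*, 1202 and 2458. The level did not pass the test in any comparison (adjusted p of 0.754 for *10xBulge* and 0.939 for *10xPerf* against WT in limma), and the groups overlapped. An insertion in a 3′UTR need not alter the level, so *Ythdc2* is no check of the genotype labels. All marker genes of the testis cell types that were looked up were above 0 in every library.

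In WT testes the 10 genes were well expressed. Divided by transcript length, the level was highest for *Catsperz*, with a mean of 7224 normalized counts per kb, followed by *Efcab9* with 3655. *Catsper2* had 2499 and *Catsper1* 2065 per kb. *Catsperg2* (1595), *Catsperd* (1479), *Catsper3* (1445), *Catsper4* (1443) and *Catsperg1* (1235) formed a group, and *Catsperb* was lowest with 912 per kb. The libraries of *Catsperz* and *Efcab9* did not overlap with those of any other member. Of the pairs next to each other in the order, *Catsper2* and *Catsper1* overlapped between N1 and N2, as did every pair from *Catsperg2* to *Catsper4*. *Catsper4* with 1393 and 1494 per kb was above *Catsperg1* with 1176 and 1295 in both libraries, and *Catsperb* was below *Catsperg1*. *Catsper1* (2227 and 1902 per kb) was above *Catsperg2* (1886 and 1304 per kb). The lengths were those of the longest transcript on GRCm38, while the counts rest on GRCm39, so that the order depends on which transcripts are used in testis.

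Short stretches before the starts of some of these genes are shown, from RefSeq promoters of 250 bases before to 50 bases after the start on GRCm38.p6. Whether they bear on differences between genotypes was not tested. Of the 10 genes, 8 had an entry, with 10 promoters. *Catsper1* and *Catsperg2* had none. The first 3 stretches are the last 30 bases before the start of genes that fell strongly in *10xBulge*, the fourth is that of *Catsperb*, which did not pass the test, and the last hold TGACG on either strand in capitals, the core of the cyclic AMP response element. They lie at chr13:55784549-55784578 on the plus strand for *Catsper3*, chr4:134227384-134227413 on the minus strand for *Catsper4*, chr11:32527575-32527604 on the minus strand for *Efcab9*, chr12:101404643-101404672 on the plus strand for *Catsperb*, chr2:121413855-121413879 on the minus strand for *Catsper2* and chr17:56626884-56626913 on the plus strand for *Catsperd*, each written 5′ to 3′ on the strand of the gene.
Catsper3: acccttcccagggtcccttgctgctgcctc
Catsper4: ccacaagggggagagagaaggactgctcgt
Efcab9: ggaccctgtccaacattctagttctgaggc
Catsperb: agttaggtagactgctaggcagttaactgt
Catsper2: cgattggctgCGTCAcgcagcgtcg
Catsperd: tacTGACGgcgcaccgcacttaCGTCAtct

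The letters of 5 motifs were looked up on both strands of these promoters. TGACGTCA, the full cyclic AMP response element, which contains TGACG, was in none of the members' promoters and in 1.79% of all 32851 promoters. Promoters on the chromosome that carries *Ythdc2* were left out of this number and of the shares below. TGACG was in *Catsper2*, 77 bases before the start, and in 1 of the 2 promoters of *Catsperd*, 160, 141 and 106 bases before it. Of the 10 promoters of the members only these held it, a share near the 20.8% of all promoters. GTTGCC, part of the X-box bound by RFX factors, was in *Efcab9*, 22 bases after the start, against 12.5% of all promoters. TATAAA, the TATA box, was in 1 promoter of *Catsperg1*, 149 bases before the start, against 13.6%, and AACNGTT, a MYB site, was in none, against 4.45%. The promoters of *Catsper3*, *Catsper4*, *Catsperb* and *Catsperz* held none of the 5.

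In *10xBulge* testes the transcripts of 3 of the 4 pore subunits and of *Efcab9* were nearly lost. *Catsper1* was at 1.12% of the WT mean, *Efcab9* at 2.19%, *Catsper3* at 2.58% and *Catsper4* at 3.19%. *Catsper2*, the remaining pore subunit, was at 49.2%, and the 4 membrane auxiliary genes and *Catsperz* were between 63.8% and 87.8% of the WT mean and did not pass the test. Of the 10 genes, 5 fell and 0 rose at an adjusted p under 0.1 in limma, where 23% of all genes tested fell and 11.4% rose. The median log2 fold change of the 10 genes was −0.97, beside −0.03 over all genes. In the same libraries, markers of round and elongating spermatids were lower, with median log2 fold changes of −4.84 and −10.00. In whole testes, fewer cells of a type and less RNA per cell cannot be told apart. The study saw no effect on fertility in its homozygous knock-in lines, which were kept by crossing homozygotes. For *10xBulge* it noted occasional smaller litters and lower expression of postmeiotic genes. The fertility finding is on the lines, and the study does not give the fertility of the mice behind the *10xBulge* libraries.

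**Figure D1:**
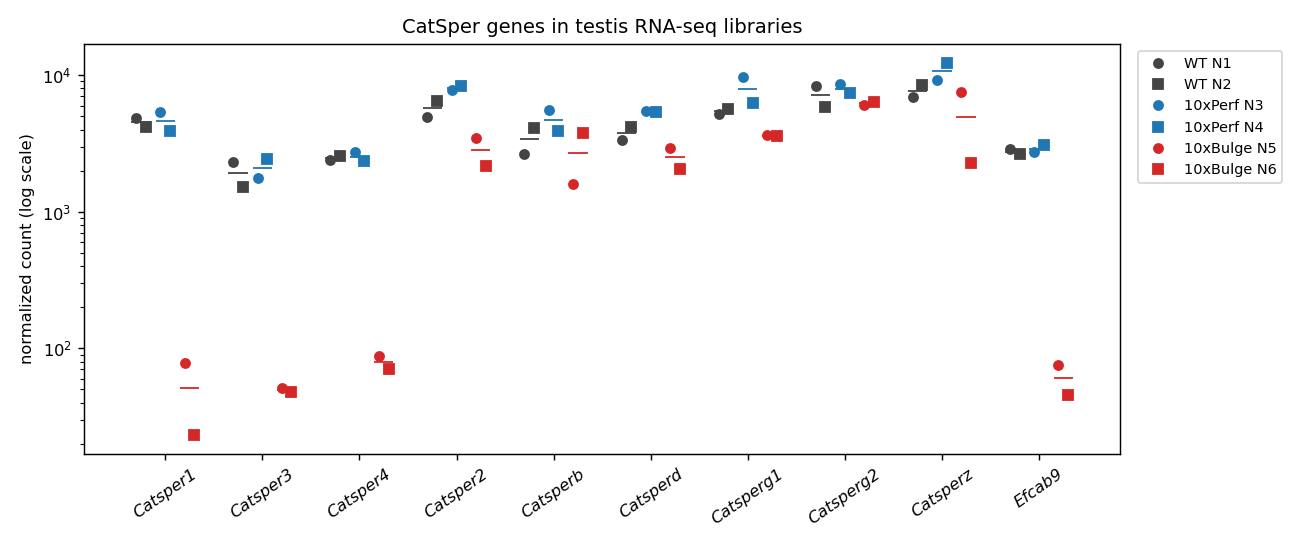
Normalized counts (log scale) of the 10 CatSper genes in each library, circles for the lower and squares for the higher library number of a genotype, with bars at the means of 2 libraries. In *10xBulge*, *Catsper1*, *Catsper3*, *Catsper4* and *Efcab9* lie between 23.1 and 88.2 counts, and the other 6 genes at 1605 or more.

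*Catsper1* (ENSMUSG00000038498.5, chromosome 19) encodes the founding pore subunit, with a histidine-rich N terminus. It had 4873 and 4162 normalized counts in WT, 5347 and 3893 in *10xPerf*, and 78.6 and 23.1 in *10xBulge*. Both *10xBulge* libraries were far below the other 4, and N6 was lower than N5 by a factor of 3.41. On the log2 scale, *Catsper1* fell by 6.69 (SE 0.56, 95% confidence interval −7.95 to −5.43, adjusted p = 2.67e-05 in limma).

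*Catsper3* (ENSMUSG00000021499.13, chromosome 13), another of the pore subunits, had 2317 and 1527 normalized counts in WT, 1770 and 2429 in *10xPerf*, and 51.2 and 47.9 in *10xBulge*. The *10xBulge* libraries were close to each other, and WT and *10xPerf* overlapped. The log2 fold change of *10xBulge* against WT was −5.22 (SE 0.41, adjusted p = 2.01e-05 in limma). *Catsper4* (ENSMUSG00000048003.13, chromosome 4) had 2403 and 2577 normalized counts in WT, 2725 and 2346 in *10xPerf*, and 88.2 and 70.4 in *10xBulge*. The spread between its replicates was small in each genotype, and it was lower in both *10xBulge* libraries than in any other. Its log2 fold change was −4.96 (SE 0.38, adjusted p = 1.72e-05 in limma).

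*Catsper2* (ENSMUSG00000033486.15, chromosome 2) encodes the pore subunit whose deletion causes infertility with deafness in humans when a neighbouring gene is lost too. It had 4936 and 6524 normalized counts in WT, 7767 and 8405 in *10xPerf*, and 3475 and 2161 in *10xBulge*. The 3 genotypes did not overlap, with *10xPerf* highest and *10xBulge* lowest. The WT mean was 5730 ± 1123 (SD, n = 2) and the *10xBulge* mean 2818 ± 929 (SD, n = 2). The log2 fold change of *10xBulge* against WT was −1.05 (SE 0.41, 95% confidence interval −1.98 to −0.12), with an adjusted p of 0.0932 in limma. This was just past the threshold of 0.1 and did not pass the alternative threshold of 0.05. This call was lost in 9 of 15 alternatives, with adjusted p values of 0.119 to 0.284, and over all 15 the adjusted p ranged from 0.0515 to 0.284. Among these were the fits without N1 (adjusted p of 0.147), N2 (0.258), N3 (0.16), N4 (0.164) or N6 (0.284).

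The calls of *Catsper1*, *Catsper3*, *Catsper4* and *Efcab9* held in all 15 alternatives, with adjusted p values up to 0.00315. Their log2 fold changes ranged from −7.55 to −5.82 for *Catsper1*, from −5.52 to −4.84 for *Catsper3*, from −5.12 to −4.58 for *Catsper4* and from −5.89 to −5.15 for *Efcab9*.

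*Efcab9* (ENSMUSG00000044056.4, chromosome 11) encodes an EF-hand protein that senses calcium for the channel. It had 2865 and 2647 normalized counts in WT, 2726 and 3077 in *10xPerf*, and 75.2 and 45.6 in *10xBulge*. WT and *10xPerf* overlapped, and *10xBulge* was far below. In *10xBulge* its log2 fold change was −5.53 (SE 0.41, 95% confidence interval −6.45 to −4.61, adjusted p = 1.45e-05 in limma).

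*Catsperz* (ENSMUSG00000050623.6, chromosome 19) encodes the binding partner of EFCAB9, which arose in mammals. It had 6920 and 8454 normalized counts in WT, 9206 and 12366 in *10xPerf*, and 7535 and 2271 in *10xBulge*. N5 was within the WT range, while N6 was below every other library. The log2 fold change of *10xBulge* against WT was −0.89 (95% confidence interval −2.16 to 0.38), which did not pass the test (adjusted p = 0.279 in limma). Without N5 it was −1.75 with an adjusted p of 0.0191. *Catsperz* shares 587 exonic bases with *Kcnk4* on the same strand, and 38.3% of its 31-base words occur there, so reads may be split between them. *Kcnk4*, a potassium channel gene, had 324 to 501 normalized counts over the 6 libraries.

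Within a library, a scaling factor shared by all genes cancels in the ratio of both partners. In WT and *10xPerf*, the ratio of *Catsperz* to *Efcab9* counts was 2.42, 3.19, 3.38 and 4.02 in N1 to N4. In *10xBulge* it was 100.3 in N5 and 49.8 in N6, above each of the other libraries.

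Of the auxiliary genes, *Catsperb* (ENSMUSG00000047014.8, chromosome 12) encodes a subunit with a large extracellular domain. It had 2663 and 4116 normalized counts in WT, 5536 and 3881 in *10xPerf*, and 1605 and 3800 in *10xBulge*. WT overlapped with both knock-in lines, and the *10xBulge* libraries, which differed by a factor of 2.37, were below those of *10xPerf*. Its log2 fold change in *10xBulge* against WT was −0.42 (95% confidence interval −1.56 to 0.71, adjusted p = 0.578 in limma). Of its 31-base words, 14.1% occur in *Gm18795*, which had 189 and 302 normalized counts in WT, 2047 and 1355 in *10xPerf*, and 91.2 and 292 in *10xBulge*, so reads may be split between them.

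*Catsperd* (ENSMUSG00000040828.11, chromosome 17) encodes a subunit that the channel needs to be stable in sperm. It had 3376 and 4186 normalized counts in WT, 5462 and 5367 in *10xPerf*, and 2931 and 2064 in *10xBulge*. The genotypes were in the same order as for *Catsper2*, without overlap. Against WT, its log2 fold change in *10xBulge* was −0.61 (95% confidence interval −1.49 to 0.27, adjusted p = 0.281 in limma).

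*Catsperg1* (ENSMUSG00000049676.15) and *Catsperg2* (ENSMUSG00000049123.11), both on chromosome 7, are mouse copies of the gene of the gamma subunit. *Catsperg1* had 5177 and 5702 normalized counts in WT, 9711 and 6218 in *10xPerf*, and 3634 and 3597 in *10xBulge*. *Catsperg2* had 8403 and 5808 normalized counts in WT, 8559 and 7381 in *10xPerf*, and 6072 and 6400 in *10xBulge*. *Catsperg1* was lowest in both *10xBulge* libraries, and *Catsperg2* overlapped between WT and *10xBulge*. The log2 fold changes of *10xBulge* against WT were −0.59 (95% confidence interval −1.49 to 0.31, adjusted p = 0.311 in limma) and −0.16 (−1.05 to 0.73, adjusted p = 0.796). The split of reads between the copies is uncertain, because 55.3% of the 31-base words of *Catsperg1* occur in *Catsperg2* and 56.2% of those of *Catsperg2* in *Catsperg1*. The sum of both copies was 13580 and 11510 normalized counts in WT, 18270 and 13599 in *10xPerf*, and 9706 and 9997 in *10xBulge*, so that the *10xBulge* libraries were lowest.

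Of the pore subunits 4 of 4 fell, and of the membrane auxiliary genes 0 of 4, with 0 at an unadjusted p under 0.05, where 23% of all genes tested fell. In the 9 alternatives that lost the call of *Catsper2*, 3 of 4 pore subunits fell. The median log2 fold changes were −5.09 and −0.50. For 7 of the 10 genes (70%), both *10xBulge* libraries were below both WT libraries, which was so for 33.2% of all genes tested. The exceptions were *Catsperb*, *Catsperg2* and *Catsperz*.

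**Figure D2:**
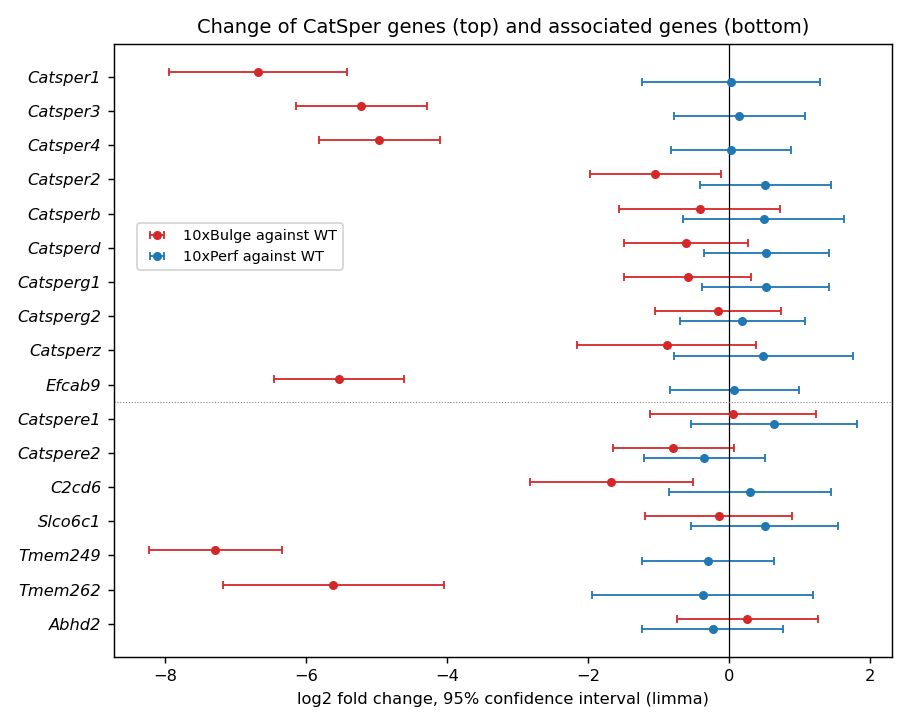
Log2 fold changes of *10xBulge* (red) and *10xPerf* (blue) against WT for the CatSper genes above the dotted line and the associated genes below it, with 95% confidence intervals from limma over 6 libraries. *Catsper1*, *Catsper3*, *Catsper4*, *Efcab9*, *Tmem249* and *Tmem262* lie beyond −4.9 in *10xBulge*, and the blue intervals all include 0.

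Whether the members fell by unequal amounts was tested with ratios within a library. A scaling factor shared by all genes of a library cancels in such a ratio, while factors that differ between genes would not. *Catsper2* was taken as the reference, a choice made after its values were seen, and its own spread between libraries enters each ratio. The ratio of *Catsper1* to *Catsper2* was 0.987 and 0.638 in WT, 0.688 and 0.463 in *10xPerf*, and 0.0226 and 0.0107 in *10xBulge*. Between *10xBulge* and WT, its log2 change was −5.64 (SE 0.55, adjusted p = 0.00056 in limma). The ratios of *Catsper3*, *Catsper4* and *Efcab9* to *Catsper2* also fell, with log2 changes of −4.17 (adjusted p = 0.00153), −3.91 (0.000998) and −4.48 (0.000584). The ratios of *Catsperb*, *Catsperd*, *Catsperg1*, *Catsperg2* and *Catsperz* to *Catsper2* changed by 0.16 to 0.89 and did not pass the test, with adjusted p values from 0.204 to 0.804. By this measure 15.3% of the genes tested fell and 41% rose relative to *Catsper2*.

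Ratios between the members that fell most were not tested and are given as values. The ratio of *Catsper3* to *Catsper4* was 0.964 and 0.592 in WT, 0.650 and 1.04 in *10xPerf*, and 0.581 and 0.680 in *10xBulge*, so that the genotypes overlapped. The ratio of *Efcab9* to *Catsper4* was 1.19 and 1.03 in WT, 1.00 and 1.31 in *10xPerf*, and 0.852 and 0.647 in *10xBulge*, with *10xBulge* lowest. The ratio of *Catsper1* to *Catsper4* was 2.03 and 1.62 in WT, 1.96 and 1.66 in *10xPerf*, and 0.891 and 0.327 in *10xBulge*. It was thus lower in both *10xBulge* libraries than in the other 4.

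The makeup of the pore transcripts differed accordingly. Per kb of transcript, *Catsper2* was 28.6% and 38.5% of the sum of the 4 pore genes in WT and 38.7% and 42.5% in *10xPerf*. In *10xBulge* it was 92.3% in N5 and 91.5% in N6. *Catsper1* made up 29.6% and 25.7% in WT and 2.19% and 1.02% in *10xBulge*. These are shares of RNA, and the proteins were not measured.

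**Figure D3:**
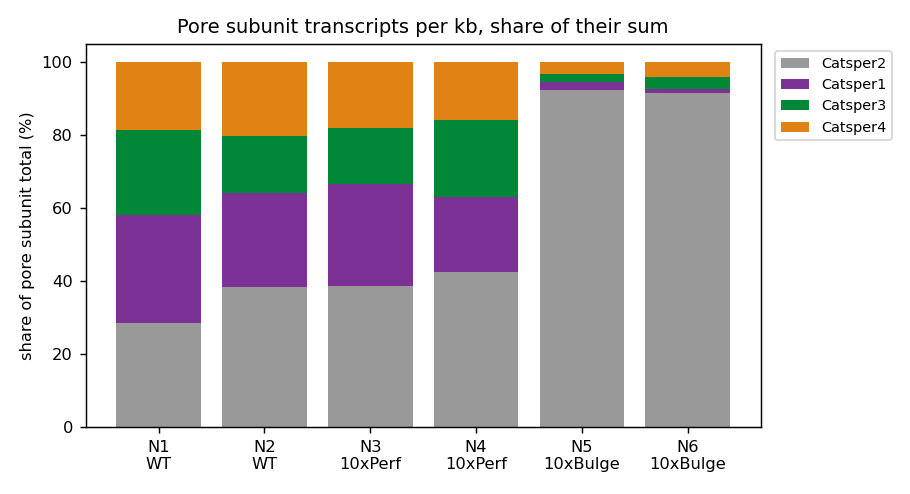
Share of each pore subunit gene in the sum of the 4, in normalized counts per kb, for each library as stacked bars that add up to 100%. *Catsper2* (grey) takes 28.6% to 42.5% in WT and *10xPerf* and over 91% in both *10xBulge* libraries.

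Other genes of the channel complex or its regulation were taken as a list of 7. Of these, 3 fell in *10xBulge*, *Tmem249*, *Tmem262* and *C2cd6*, and 0 rose, where 23% of all genes tested fell and 11.4% rose. Their median log2 fold change was −0.80, beside −0.03 over all genes. *Tmem249* (chromosome 15), known as a component of the purified channel, had 1793 and 1205 normalized counts in WT, 1266 and 1123 in *10xPerf*, and 8.71 and 8.14 in *10xBulge*. The *10xBulge* values were not far above the worth of 3 reads. Its log2 fold change was −7.29 (SE 0.42, adjusted p = 5.66e-06 in limma). *Tmem262* (chromosome 19), another component, had 634 and 359 normalized counts in WT, 329 and 410 in *10xPerf*, and 19.8 and 3.56 in *10xBulge*. N6 was near the worth of 3 reads, so its log2 fold change of −5.62 (SE 0.69, adjusted p = 0.000282) depends on the pseudocount and the library, and it ranged from −6.71 to −4.52 over the alternatives.

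*C2cd6* (chromosome 1) encodes a C2-domain protein needed for the channel to reach the tail. It had 14786 and 28023 normalized counts in WT, 33555 and 18557 in *10xPerf*, and 4979 and 8170 in *10xBulge*. Both *10xBulge* libraries were lowest, although replicates differed by a factor of 1.90 in WT and 1.81 in *10xPerf*. The log2 fold change was −1.67 (SE 0.51, adjusted p = 0.0406 in limma), and the call was lost without N2 (−1.21, adjusted p of 0.199), without N5 (−1.32, adjusted p of 0.11) and after scaling to library totals (−1.29, adjusted p of 0.112).

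*Catspere1* and *Catspere2* (chromosome 1) encode the epsilon subunit in 2 copies. *Catspere1* had 1998 and 2787 normalized counts in WT, 4181 and 3210 in *10xPerf*, and 1472 and 4093 in *10xBulge*. *Catspere2* had 1162 and 1301 in WT, 1081 and 856 in *10xPerf*, and 659 and 759 in *10xBulge*. *Catspere1* in *10xBulge* overlapped with both other genotypes, *10xPerf* was above WT, and *Catspere2* was lowest in *10xBulge*. Their log2 fold changes of 0.06 and −0.80 did not pass the test (adjusted p of 0.952 and 0.155 in limma), and 36.7% of the 31-base words of *Catspere1* occur in *Catspere2*. *Slco6c1* (chromosome 1), a transporter-like component of the purified channel, had 4139 and 7883 normalized counts in WT, 7896 and 8288 in *10xPerf*, and 4001 and 6594 in *10xBulge*. *Abhd2* (chromosome 7), the progesterone-binding lipid hydrolase that relieves inhibition of the channel, had 16021 and 12187 in WT, 10198 and 13756 in *10xPerf*, and 21534 and 12931 in *10xBulge*. *Slco6c1* overlapped between WT and *10xBulge*, with *10xPerf* above both, and *Abhd2* overlapped between all genotypes. Neither passed the test, with log2 fold changes of *10xBulge* against WT of −0.15 (adjusted p = 0.839) and 0.26 (adjusted p = 0.710).

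**Figure D4:**
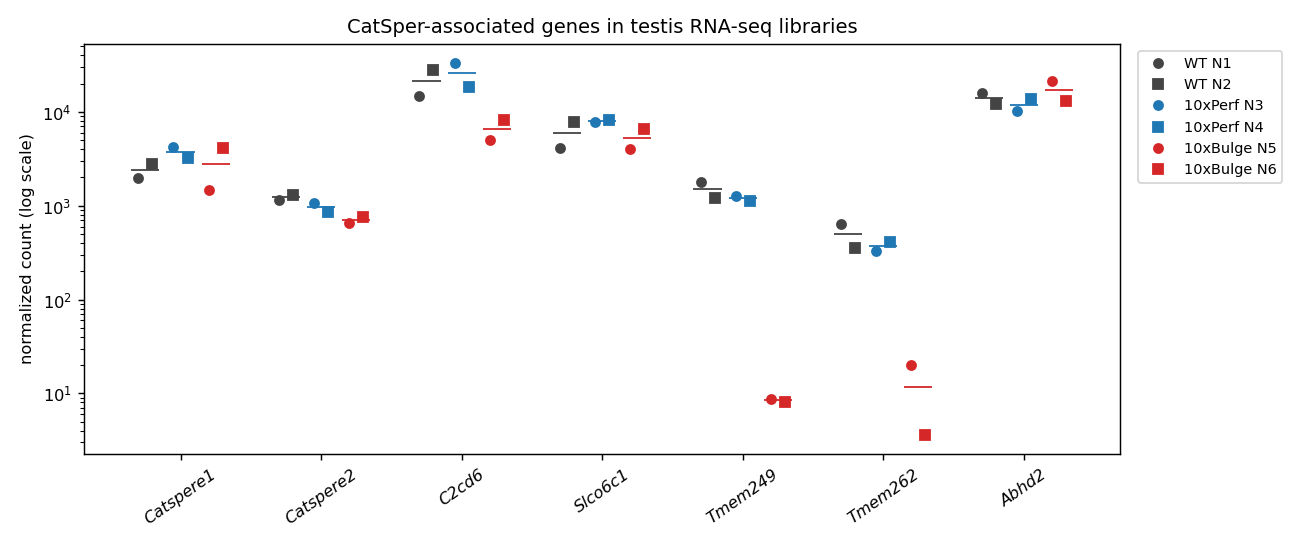
Normalized counts (log scale) of 7 genes associated with the channel in each library, circles for the lower and squares for the higher library number of a genotype, with bars at the means of 2 libraries. *Tmem249* and *Tmem262* lie between 3.56 and 19.8 counts in *10xBulge* and at 329 or more elsewhere.

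The markers of testis cell types, given as lists, also differed in *10xBulge*, where 23% of all genes tested fell. Of the 6 round spermatid markers 6 fell, with a median log2 fold change of −4.84, and their summed level was 46332 to 70379 normalized counts in WT, 49950 to 55217 in *10xPerf* and 3775 to 7048 in *10xBulge*. Of the 6 elongating spermatid markers 6 fell, with a median of −10.00, and their sum was 466653 to 705232 in WT, 574684 to 615803 in *10xPerf* and 633 to 1355 in *10xBulge*. *Catsper1*, *Catsper3*, *Catsper4* and *Efcab9* had log2 fold changes nearer to the round spermatid median, and those of *Catsper2*, *Catsperz* and the auxiliary genes were smaller than either. Of the 7 spermatocyte markers 0 passed the test, with a median of 0.03. Their sum was 19850 to 34278 in WT and 26390 to 27853 in *10xBulge*.

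Among the other lists, 1 of 6 spermatogonial, 3 of 6 Sertoli, 3 of 5 Leydig and 4 of 4 macrophage markers rose in *10xBulge*, where 11.4% of all genes tested rose. The medians were 0.87, 1.09, 1.65 and 1.68. The sums of the Leydig markers were 49463 to 70133 in WT and 135659 to 282868 in *10xBulge*, and those of the macrophage markers 1499 to 1644 and 4084 to 6578. Of 3 peritubular and 3 endothelial markers 0 passed, with medians of 0.18 and 0.41. In *10xPerf*, 0 markers of any list were called, where 0.492% of all genes tested fell and 0.467% rose. The part of these shifts in the levels of the CatSper genes was not tested.

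**Figure D5:**
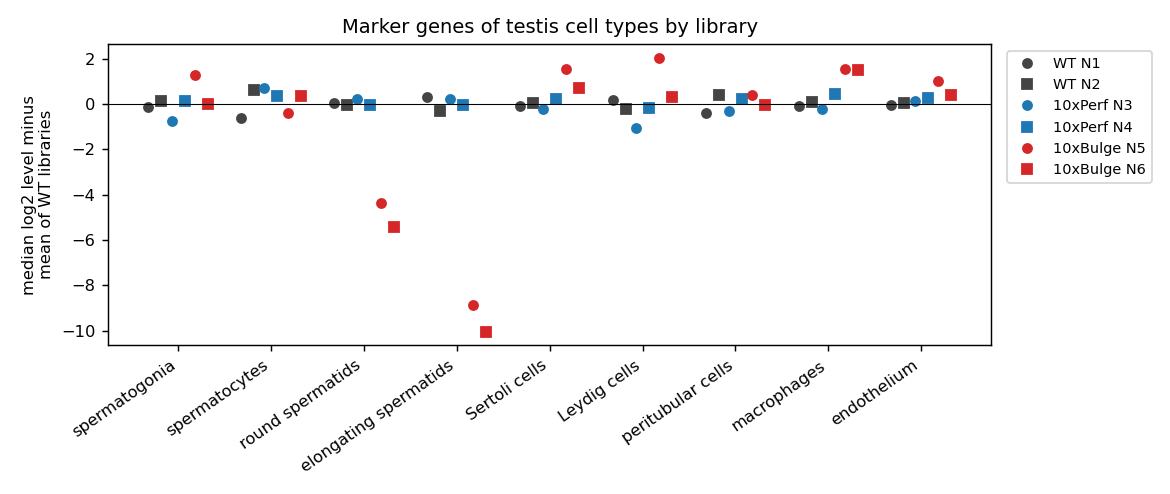
Median log2 level of each marker list in each library minus the mean of the WT libraries, circles for the lower and squares for the higher library number of a genotype. The *10xBulge* libraries lie far below 0 for round and elongating spermatid markers and near or above 0 for the other lists.

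In *10xPerf* testes, which carry fully complementary sites, 0 of the 10 genes were called against WT, where 0.492% of all genes tested fell and 0.467% rose. At an unadjusted p under 0.05 the count was also 0, and the adjusted p values were 0.853 to 0.995 in limma. All 10 log2 fold changes were above 0, from 0.02 for *Catsper1* to 0.53 for *Catsperd*, with a median of 0.33 beside 0.02 over all genes. The sign did not hold in every alternative for *Catsper1*, *Catsper3*, *Catsper4*, *Catsperg2* and *Efcab9*. For *Catsper2*, *Catsperd*, *Catsperg1* and *Catsperz* (4 of 10, 40%), both *10xPerf* libraries were above both WT libraries, which was so for 20.2% of all genes. The 95% confidence intervals reached from −0.35 to 1.41 for *Catsperd* and from −1.24 to 1.28 for *Catsper1*, so that a change of 2-fold in *Catsper1* could not be told from none with 2 libraries per genotype.

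The knock-in lines were designed to differ in the pairing of bases 10 and 11. They were made by separate injections, so effects of the pairing and of the line cannot be told apart. Between them, 7 of the 10 genes were lower in *10xBulge* and 0 higher. Of all genes tested, 24.1% were lower and 12.9% higher. This comparison shares the *10xBulge* libraries with that against WT. The log2 differences were −6.70 for *Catsper1*, −5.60 for *Efcab9*, −5.36 for *Catsper3* and −4.99 for *Catsper4*, with adjusted p values of 2.41e-05, 1.24e-05, 1.59e-05 and 1.51e-05 in limma. *Catsper2* was lower too, with a log2 difference of −1.56 and an adjusted p of 0.0210. *Catsperd* (−1.14, adjusted p of 0.0570) and *Catsperg1* (−1.10, adjusted p of 0.0677) also passed, which they did not against WT. *Catsperz* (−1.37, adjusted p of 0.101), *Catsperb* (−0.91, adjusted p of 0.210) and *Catsperg2* (−0.35, adjusted p of 0.546) did not. The median was −1.46, beside −0.07 over all genes.

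The calls of *Catsper2*, *Catsperd* and *Catsperg1* in this comparison were lost in some alternatives. Without N3 their log2 differences were −1.62, −1.13 and −0.78, with adjusted p values of 0.128, 0.248 and 0.387. Without N4 they were −1.50, −1.15 and −1.43, with adjusted p values of 0.12, 0.185 and 0.102, so that 4 genes were called in each case. The adjusted p of *Catsperd* was 0.169 without N6 (−0.89), and that of *Catsperg1* was 0.126 without N5 and 0.108 without N6. With all libraries, the call of *Catsperg1* was also lost after scaling to library totals (−0.85, adjusted p of 0.126) and without the mean-variance trend (−1.10, adjusted p of 0.101). *Catsperz* passed in 5 of 15 alternatives, without N5 (−2.23, adjusted p of 0.00453) and, with all libraries, after upper quartile scaling (adjusted p of 0.0845), with at least 10 in every library (0.0626), with a pseudocount of 10 (0.0913) and after removal of the GC trend (0.0288). *Catsperb* passed without N6 (−1.53, adjusted p of 0.0389).

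The order of the replicates was not the same for all members. Of the *10xBulge* libraries, N6 was higher for *Catsperb* and *Catsperg2* and N5 for the others. The mean profile of the 10 genes over the 6 libraries, each gene as log2 level minus its own mean, was 0.75 and 0.79 in WT, 1.11 and 1.02 in *10xPerf*, and −1.62 and −2.06 in *10xBulge*. The members lay at a root mean square difference of 0.705 (*Catsper2*) to 1.90 (*Catsper1*) from it, so no member followed the mean closely.

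The genes outside the complex with the profile most like this mean were *Gm30159*, a long noncoding RNA, with a root mean square difference of 0.0876 over the 6 libraries, *Hoga1* (0.114), a mitochondrial aldolase, *Cytl1* (0.140), a secreted cytokine-like protein, *Spata6* (0.143), needed for the sperm head-tail connection, and *Ctnna3* (0.145), an alpha-catenin. As an example, *Spata6* had 21403 and 25567 normalized counts in WT, 31692 and 26977 in *10xPerf*, and 3978 and 3896 in *10xBulge*. Their log2 fold changes of *10xBulge* against WT, from −2.68 for *Hoga1* to −2.38 for *Cytl1*, lie between those of the members that fell most and the others. They were chosen for this likeness, which is a description.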

How the data were processed

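Normalized read counts of 6 testis RNA-seq libraries, 2 per genotype, were analysed out of 26 samples. The 20 small RNA libraries were not used. The authors assigned single-end reads of a stranded kit with salmon (library type inferred, with GC correction) to GRCm39 with the Ensembl annotation, and deposited DESeq2-normalized counts, a signal per gene that is not whole reads. Of 34847 genes above 0, only 19.5% were whole multiples of a step within 0.01 reads in every library, which does not allow the reads to be restored. The authors' deposited log2 fold changes and adjusted p-values were not used.

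The 23782 genes that reached 10 in 2 or more libraries were fitted as log2(value + 1) in limma 3.58.1 (R 4.3.3), with a term per genotype, a mean-variance trend and Benjamini-Hochberg adjustment over all genes tested. The adjusted p threshold of 0.1 was taken from the study. Fold changes on this scale are understated for low genes. An exact permutation test of 2 against 2 libraries cannot go below p = 0.33 (two-sided). The fit was also run on simulated data with independent noise and far fewer changed genes than were called in *10xBulge*. That run is thus no check of the calls given here. The genes, gene lists and tests were chosen with earlier results of these data known. Named were the members, 7 associated genes and the 5 genes most like the members' mean profile.

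Transcript lengths and shared 31-base words were taken from GENCODE transcripts on GRCm38, promoters from RefSeq. All 17 genes matched by identifier. Alternatives were other scalings, filters, pseudocounts (0.1 and 10), a fit of only the genotypes compared, no trend, removal of the trend with GC content (loess, span 0.3) and leaving out each library. An adjusted p under 0.05 was also used for the number of genes called and is not among the 15 alternatives given for single genes. The ratio to *Catsper2* was added after seeing the data and was fitted without the mean-variance trend. Python 3.11.15, pandas 2.3.3 and matplotlib 3.10.9 were used for the rest.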

Additional observations from a re-analysis of the deposited data

How the results depend on the processing

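No paired analysis was possible because the labels number the libraries N1 to N6 in a single run and give no number that recurs across genotypes. With 2 libraries per genotype, a change of 2-fold in a single gene was often within the confidence interval, and the precision at low counts was that of a few reads. Scaling to library totals moved the all-gene median log2 fold change by over 0.1, to 0.36 (*10xBulge* against WT), 0.15 (*10xPerf* against WT) and 0.18 (*10xBulge* against *10xPerf*), and the share of higher genes among all calls from 33.2% to 55% and, between the lines, from 34.9% to 49.8%. The number of members called lower against WT was 4 to 6. The cause was not tested for any of the values given here.

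For *10xBulge* against WT, the members' median was −0.58 with library totals and −1.57 to −0.80 leaving out a library. For *10xPerf* against WT it was 0.47 with library totals, 0.15 without the GC trend and 0.21 to 0.33 leaving out a library. Between the lines it was −1.21 with library totals and −2.07 to −1.37 leaving out a library, and the number of members called lower was 4 to 7 leaving out a library and up to 8 under the other alternatives. The median of the associated genes between the lines was −1.32 to −0.34 leaving out a library. With at least 10 in every library, 1 associated gene was called lower against either group, as *Tmem249* and *Tmem262* were then not tested.

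Signs turned for values that did not pass the test. For *10xBulge* against WT, the values leaving out a library were −0.43 to 0.10 for *Catsperg2*, −1.04 to 0.20 for *Catsperb*, −0.68 to 0.79 for *Catspere1*, −0.11 to 0.62 for *Abhd2* and −0.62 to 0.31 for *Slco6c1*, and library totals gave 0.22 for *Catsperg2* and 0.23 for *Slco6c1*, for which removal of the GC trend gave 0.23. For *10xPerf* against WT, they were −0.21 to 0.25 for *Catsper1*, −0.16 to 0.44 for *Catsper3*, −0.085 to 0.13 for *Catsper4*, −0.080 to 0.45 for *Catsperg2*, −0.015 to 0.16 for *Efcab9*, −0.79 to 0.035 for *Tmem262* and −0.17 to 0.76 for *C2cd6*. There the upper quartile gave −0.047 for *Catsper1* and −0.043 for *Catsper4*, and removal of the GC trend −0.23 for *Efcab9* and −0.056 for *C2cd6*. Between the lines, *Catspere1* was at −1.32 to 0.16 leaving out a library, and removal of the GC trend gave 0.11 for *Catspere2* and 0.052 for *Slco6c1*.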
